A study of Zea mays with 18 samples.

Results

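RNA from leaves of maize (Zea mays) seedlings of the inbred line B73 was compared between 24 h and 48 h at 4 °C, the second day of a cold treatment. The comparison used 6 of the 18 libraries of the series, 3 at 24 h and 3 at 48 h, and was defined by genotype and time, not by expression. The labels describe growth at 25 °C under days of 16 h light and 8 h darkness until the three-leaf (V2) stage, and 3 biological replicates at each time, each holding 50 seedlings. B73 is the standard inbred line of maize genetics and served here as the control for a zmzfp69 line in the same background, which some label fields call a mutant and others a knock-down. The series also holds B73 and zmzfp69 leaves at 0 h and zmzfp69 leaves at 24 and 48 h. Times were read from the sample titles as time in the cold. The treatment field names 4 °C at 0 h too, and the growth protocol also mentions a recovery at 25 °C lasting 24 h and control plants held at 25 °C, without saying whether any library came from them. For mutant replicates 2 and 3 at 24 and at 48 h, a further field gives the time as 0 h, against their titles. For the hour of the light cycle at which leaves were taken, the sources used here give no value.

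Maize is a plant of warm origin, and chilling slows its photosynthetic enzymes while light is still absorbed. In grasses, a fall in temperature is read through membranes, calcium and hormones and is followed by waves of transcription. Fast factors of the DREB/CBF and jasmonate pathways come first, and genes for membrane lipids, redox protection, carbon storage and growth arrest follow later. Jasmonate, ethylene and abscisic acid are the stress hormones most often tied to this response, and the circadian clock gates it by the time of day.

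Values were FPKM (fragments per unit of gene length and of a scaling total for each library), which can be compared between genes because they are per length. Of the 50118 genes in the table, 23141 reached 1 FPKM in at least 3 of the 18 libraries and were tested. Of these, 19109 reached it in at least 3 of the 6 libraries compared, and 120 were at 0 in all 6. Recovered read totals were 17.9, 14.8 and 17.8 M at 24 h and 17.8, 18.3 and 19.0 M at 48 h. The totals behind the FPKM scaling were 1.21, 0.930 and 0.899 times these at 24 h and 0.677, 1.02 and 0.962 times at 48 h. FPKM of all genes summed to 548065, 683040 and 706331 at 24 h and to 846346, 651791 and 637165 at 48 h. Sums of FPKM over marker genes below carry this scaling. Differences are given as the 48 h mean minus the 24 h mean of log2(FPKM + 1), with the standard error, and this scale understates the change of genes near 0. A gene is said to have risen or fallen where limma's Benjamini-Hochberg adjusted p was under 0.05. These p-values measure the spread between the libraries, pooled over the 6 groups of the series. The labels do not say whether the replicates were grown apart. The spread was unequal between groups. Its median standard deviation on the log2 scale was 0.29, 0.36 and 0.46 in B73 at 0, 24 and 48 h. In the zmzfp69 line it was 0.29, 0.45 and 0.40.

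Libraries of one time differed widely from each other. On the first principal component of all 18 libraries (42.2% of the variance), B73 24 h replicates 1, 2 and 3 lay at -7.53, 42.8 and 21.9, and B73 48 h replicates 1, 2 and 3 at 106, 46.6 and 45.3. The 24 h replicate 1 correlated with the other 24 h libraries at 0.871 and 0.870 across genes, below the 0.964 of replicates 2 and 3 with each other. At 48 h replicates 1 and 3 correlated at 0.921, and replicate 2 at 0.869 with each of them. The plot of library positions shows that the spread within each time was large beside the distance between the times. Maize leaf carries out C4 photosynthesis in mesophyll and bundle sheath cells, and genes marking these cells summed to 12268, 52351 and 64120 FPKM at 24 h and to 40250, 42861 and 35767 FPKM at 48 h. The mesophyll enzyme phosphoenolpyruvate carboxylase 1 (Zm00001d046170) was at 1519, 7734 and 8267 FPKM at 24 h and 4795, 4444 and 5329.9 FPKM at 48 h, so the leaf label matched its markers, with 24 h replicate 1 lowest. In that library a single gene described as the lectin horcolin (Zm00001d023516) held 3.08% of the reads, at 52039.5, 2522 and 2863 FPKM in the 24 h libraries and 13181, 37633 and 31609.5 FPKM in the 48 h libraries. Below, a call is said to need a library where it was lost when that library was left out, and to hold where it was kept without each of the 6 in turn.

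**Figure D1:**
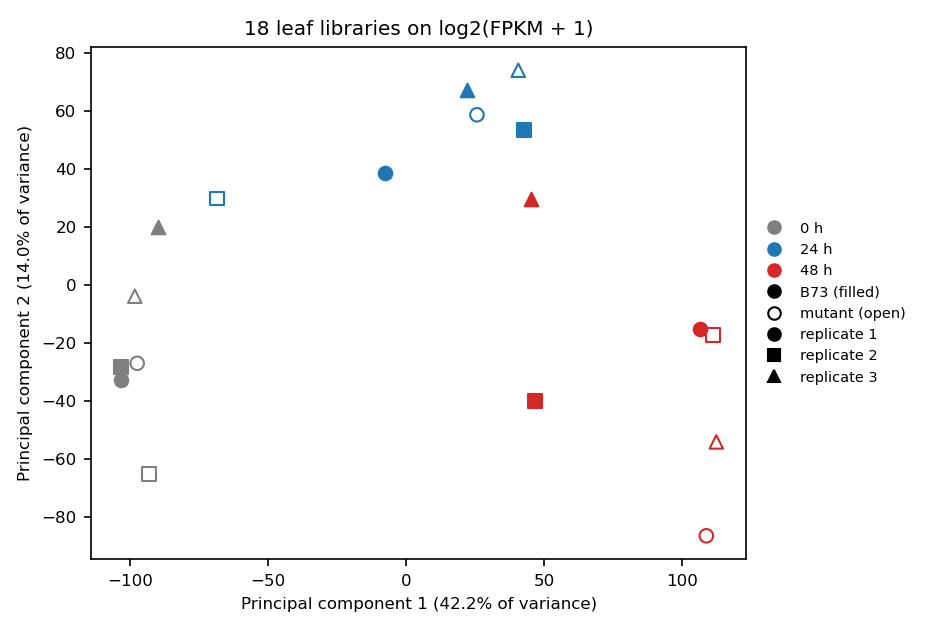
Position of the 18 leaf libraries on the first and second principal components of log2(FPKM + 1), holding 42.2% and 14.0% of the variance; colour gives the time at 4 °C, filled symbols are B73, open symbols the zmzfp69 line, and the shape gives the replicate. B73 24 h replicate 1 (-7.53 on the first component) lies apart from the other 24 h libraries, and the 3 B73 48 h libraries (106, 46.6 and 45.3 on the first component, -15.2, -40.2 and 29.7 on the second) all lie far from each other.

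During the second day of cold, 607 genes rose and 199 fell in B73 leaves. Genes for an ethylene-forming enzyme, ethylene response factors, clock components, heat stress factors and histones were among those that rose. So were 1 of 32 genes of chlorophyll synthesis and 4 of 95 for antioxidant enzymes, lists with medians of -0.28 and -0.17. Genes for jasmonate synthesis and breakdown, pathogenesis-related proteins, kinases at the head of MAP kinase cascades, cuticular wax and phenylpropanoid synthesis were among those that fell. The calls covered 3.48% of the genes tested, with 2.62% higher and 0.86% lower. Of the genes that rose, 592 differed by at least 2-fold and 239 by at least 4-fold, with a median difference of 1.84 and a range of 0.80 to 5.51. Of those that fell, 182 passed 2-fold and 86 passed 4-fold, with a median of -1.77 and a range of -5.07 to -0.76. The values of the 3 libraries of one time did not overlap those of the other for 604 of the rises and 198 of the falls, beside 4674 of all genes tested (20.2%).

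The typical gene that rose had a similar level before the cold and after 1 day of it. The median of the mean level over the 607 rises was 3.97 FPKM at 0 h, 3.22 FPKM at 24 h and 17.4 FPKM at 48 h. For the 199 falls the medians were 3.62, 10.2 and 1.70 FPKM, so the typical member was highest at 24 h. The 24 h libraries enter the difference from 0 h as well as that to 48 h, so these levels are set side by side and were not compared by a test.

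The number of calls depended on single libraries. Leaving out B73 24 h replicate 3 gave 171 rises and 52 falls, leaving out 48 h replicate 1 gave 189 and 59, and leaving out 24 h replicate 2 gave 272 and 55. The counts were 469 rises and 321 falls when 24 h replicate 1 was left out, 472 and 113 when it was 48 h replicate 2, and 895 and 206 when it was 48 h replicate 3. Of the 806 calls, 169 were made with each of the 18 libraries left out in turn, 139 of them rises and 30 falls. B73 48 h replicate 1 had the highest of the 3 values at 48 h for 411 of the 607 rises (67.7%), beside 34.7% of all genes tested. That library also had the smallest scaling total for its reads among the 6 compared (0.677 times). Scaling to the library totals instead of the deposited scaling gave 335 rises and 191 falls (63.7% of calls higher, against 75.3%) and moved the median difference of all genes from -0.01 to -0.14. A fit to the 6 compared libraries alone gave 0 calls in limma, with 3328 genes at an unadjusted p under 0.05 and 457 calls by limma-voom on all libraries. The plot of calls under each setting shows more rises than falls in every setting that gave calls.

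**Figure D2:**
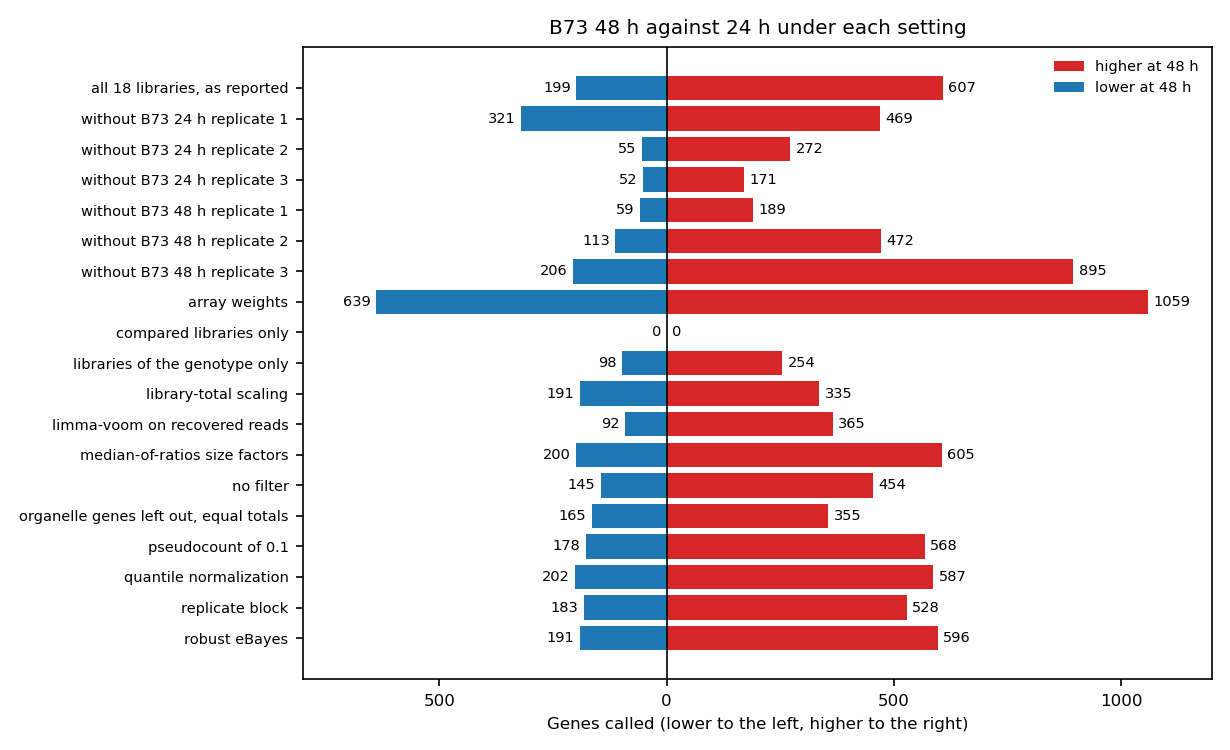
Number of genes called higher (right) and lower (left) at 48 h than at 24 h in B73 under the reported fit and under each other setting. The reported fit gave 607 higher and 199 lower, and the counts without a single compared library ran from 223 to 1101 in all.

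The 12 largest rises and 12 largest falls described here are those of genes with a name and a mean of at least 5 FPKM at the higher time. Their values were also required not to overlap between the times, so the lack of overlap in these genes was fixed by the choice. Several of these rises were in genes that were almost silent at 24 h. Carboxylesterase 15 (Zm00001d013099, chr5:4703800-4704819), an enzyme that splits ester bonds, was at 0.272, 0.855 and 0.799 FPKM at 24 h and 186, 65.2 and 31.2 FPKM at 48 h. Each 48 h value was far above the highest 24 h value, and the log2 difference was 5.51 ± 0.95, adjusted p = 0.00603. The leucine zipper factor bZIP 74 (Zm00001d020823, chr7:133939918-133940505) was at 0.55, 0.742 and 0 FPKM at 24 h and 86.2, 7.01 and 22.4 FPKM at 48 h, and the PHD finger gene PHD 28 (Zm00001d048969, chr4:11098504-11103144), of a protein class that reads marks on histone tails, at 0.543, 0.445 and 0.147 FPKM at 24 h and 38.2, 12.6 and 17.3 FPKM at 48 h. Neither gene overlapped between times, replicate 1 was highest at 48 h in both, and the differences were 4.19 ± 0.73, adjusted p = 0.00669 and 3.96 ± 0.37, adjusted p = 0.00017. The ethylene response factor AP2-EREBP 111 (Zm00001d053195, chr4:219203452-219206136), similar to Arabidopsis ERF110, was at 0.823, 1.65 and 3.04 FPKM at 24 h and 40.1, 27.5 and 39.3 FPKM at 48 h. Its 48 h values lay close together, and its difference was 3.75 ± 0.33, adjusted p = 0.00017.

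ACC oxidase2 (Zm00001d020686, chr7:128315057-128316692), which carries out the last step of ethylene synthesis, had the highest level among the 12 largest rises. It was at 227, 41.1 and 28.2 FPKM at 24 h and 1612, 606 and 712 FPKM at 48 h, with replicate 1 highest at both times and no overlap. Its difference was 3.76 ± 0.70, adjusted p = 0.00974, and the call needed 24 h replicate 3 and 48 h replicate 1 (adjusted p up to 0.0599). The gene similar to Arabidopsis LATE FLOWERING (Zm00001d038863), a zinc finger repressor of flowering in that species, was at 2.17, 4.52 and 2.58 FPKM at 24 h and 85.4, 64.2 and 34.2 FPKM at 48 h. Its difference was 3.88 ± 0.72, adjusted p = 0.00952, and the call needed 48 h replicate 1 (adjusted p = 0.0505 without it). The eRF1-3 gene (Zm00001d037868), for a factor that ends translation at stop codons, was at 0.947, 0.773 and 0.714 FPKM at 24 h and 12.4, 34.4 and 29.5 FPKM at 48 h, here with replicate 1 lowest at 48 h. Its difference was 3.75 ± 0.70, adjusted p = 0.00941. Thaumatin-like protein 1 (Zm00001d047938), of a family with pathogenesis-related members, was at 2.32, 6.78 and 3.52 FPKM at 24 h and 91.6, 75 and 36.6 FPKM at 48 h (3.71 ± 0.50, adjusted p = 0.00183). The small nucleolar RNA snoZ101 was at 0 in the 3 libraries of 24 h and at 16.5, 18.2 and 4.37 FPKM at 48 h, in libraries made from poly-A RNA per the labels.

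The other 3 of the 12 largest rises rested on fewer libraries. The gene similar to NUCLEAR FUSION DEFECTIVE 4 (Zm00001d022636), named for nuclear fusion in Arabidopsis, was at 4.4, 1.81 and 0.858 FPKM at 24 h and 179, 16.2 and 50.9 FPKM at 48 h (4.16 ± 0.97, adjusted p = 0.0278). The gene similar to NEN1 (Zm00001d014191), a nuclease of sieve element development in Arabidopsis, was at 6.36, 4.43 and 1.51 FPKM at 24 h and 270.1, 25.2 and 34.1 FPKM at 48 h (3.76 ± 0.82, adjusted p = 0.0203). The first call needed 24 h replicates 2 and 3 and 48 h replicate 1 (adjusted p up to 0.146), and the second needed the same libraries (up to 0.107). A heat- and acid-stable phosphoprotein gene (Zm00001d010735) was at 0, 2.31 and 0.319 FPKM at 24 h and 24.2, 121 and 4.31 FPKM at 48 h, with replicate 2 far above the others, and its call needed all 3 24 h replicates and 48 h replicates 1 and 2 (adjusted p up to 0.142). Of the 12 largest rises, 7 were called with each of the 18 libraries left out.

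Of the falls, those of 2 unnamed genes were among the largest of all (Zm00001d040027 at -5.07 and Zm00001d040029 at -4.56 on the log2 scale). Xylanase inhibitor protein 1 (Zm00001d018966), of a class that blocks fungal cell wall enzymes, was at 173, 123 and 70.6 FPKM at 24 h and 2.5, 2.25 and 3.3 FPKM at 48 h, so every 24 h value was far above every 48 h value. Its difference was -4.98 ± 1.23, adjusted p = 0.0374, and the call needed each of the 6 libraries (adjusted p up to 0.123). The RING finger ubiquitin ligase gene ATL45 (Zm00001d051468, chr4:159713956-159714438) was at 0.609, 0.504 and 0.842 FPKM at 0 h and at 30.9, 109.8 and 357 FPKM at 24 h and 7.19, 2.99 and 9.28 FPKM at 48 h. Replicate 3 was highest at both times of cold, the times did not overlap, and the difference was -3.96 ± 0.74, adjusted p = 0.00989. The call needed 24 h replicate 3 (adjusted p = 0.0501 without it). NAC 60 (Zm00001d013003), of the plant NAC factor family, was at 2.28, 5.13 and 10.3 FPKM at 0 h and at 51.7, 229 and 464 FPKM at 24 h and 26.8, 6.29 and 11.5 FPKM at 48 h (-3.71 ± 0.74, adjusted p = 0.0137), and bHLH 116 (Zm00001d024522) was at 52.9, 84.2 and 217 FPKM at 24 h and 8.8, 1.7 and 10.4 FPKM at 48 h (-3.90 ± 0.95, adjusted p = 0.0352). The NAC 60 call needed 24 h replicates 2 and 3 and 48 h replicate 2 (adjusted p up to 0.0811), and the bHLH 116 call needed 24 h replicates 2 and 3 and 48 h replicates 1 and 2 (adjusted p up to 0.16).

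A pair of genes similar to Arabidopsis MAPKKK17, a kinase at the head of a MAP kinase cascade that abscisic acid switches on in that species, fell together. The gene Zm00001d011656 (chr8:157692739-157694157) was at 0.267, 0.171 and 0.123 FPKM at 0 h and at 15.9, 32.6 and 95.6 FPKM at 24 h and 3.38, 1.36 and 2.12 FPKM at 48 h. It was high in every 24 h library and low in every library of 0 and 48 h, with a difference of -3.58 ± 0.49, adjusted p = 0.00183. Its relative Zm00001d043740 was at 30.4, 95.3 and 219 FPKM at 24 h and 11.8, 5.04 and 11.7 FPKM at 48 h (-3.13 ± 0.60, adjusted p = 0.0111), and its call needed 24 h replicate 3 (adjusted p = 0.0625 without it). The CCR4-associated factor 1 homolog 11 (Zm00001d026657), which shortens poly-A tails of mRNA, was at 14.5, 56.6 and 164 FPKM at 24 h and 2.3, 3.75 and 5.22 FPKM at 48 h (-3.52 ± 0.66, adjusted p = 0.00989), and its call needed 48 h replicate 1 (adjusted p = 0.0526 without it). WRKY 57 (Zm00001d038451, chr6:157439807-157442874), a DNA-binding factor of a family tied to defence, was at 13, 19.5 and 11.6 FPKM at 24 h and 0.794, 0.612 and 0.125 FPKM at 48 h, and its 24 h values lay close together. Its difference was -3.37 ± 0.50, adjusted p = 0.00265. WRKY 57 and Zm00001d011656 were the 2 of the 12 largest falls that were called with each of the 18 libraries left out.

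Pathogenesis-related proteins, which plants secrete against microbes, were listed together with chitinases and glucanases. This mixed list had 5 falls and 2 rises among 114 tested members. These were 4.39% and 1.75% of the list, beside 0.86% and 2.62% of all genes. Pathogenesis-related protein 7 (Zm00001d028815, chr1:47440048-47441026) was at 3.28, 22.5 and 31.3 FPKM at 24 h and 0, 0.181 and 0.37 FPKM at 48 h, and the neighbouring gene Zm00001d028814, described as pathogenesis-related protein 1, at 4.32, 22.3 and 22.9 FPKM at 24 h and 1.02, 0 and 0.308 FPKM at 48 h. In both, 24 h replicate 1 was the lowest of its group yet above every 48 h value. Their differences were -3.66 ± 0.82, adjusted p = 0.0232 and -3.38 ± 0.82, adjusted p = 0.0336, and reads of such near copies may be split between them by the counting. The thaumatin-like pathogenesis-related protein 4 (Zm00001d031152) was at 311, 40.8 and 37.7 FPKM at 24 h and 0, 13.4 and 1.06 FPKM at 48 h, with 24 h replicate 1 far above the rest (-4.68 ± 1.20, adjusted p = 0.0429). The call of Zm00001d028815 needed 24 h replicates 2 and 3 and 48 h replicates 1 and 2 (adjusted p up to 0.118), that of Zm00001d028814 needed 24 h replicates 2 and 3 and all 3 48 h replicates (adjusted p up to 0.145) and that of Zm00001d031152 needed all 3 24 h replicates and 48 h replicates 1 and 3 (adjusted p up to 0.196). The list had 0 falls without B73 24 h replicate 2, 24 h replicate 3 or 48 h replicate 1.

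**Figure D3:**
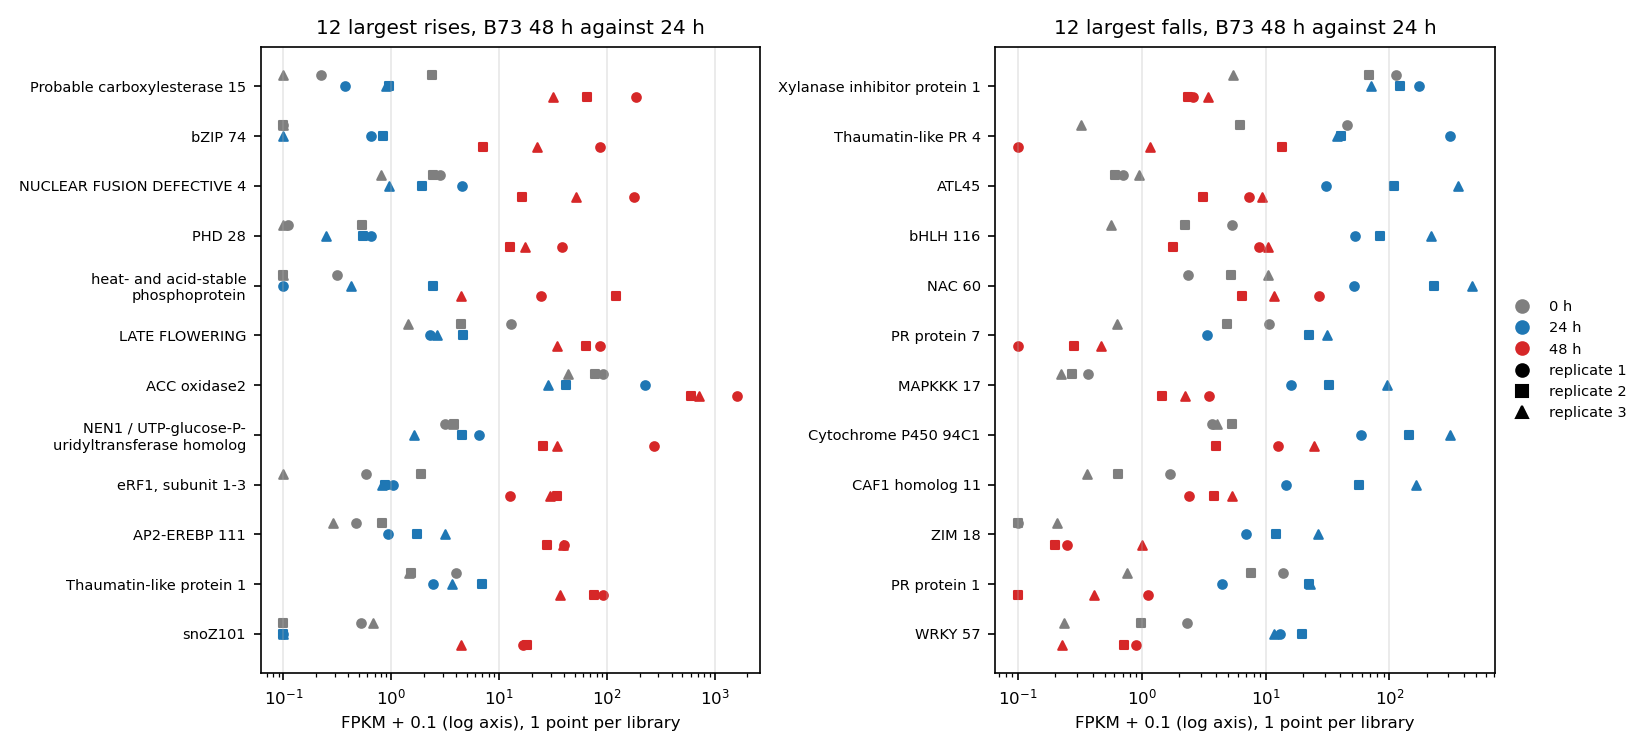
FPKM + 0.1 on a log axis for the 12 largest rises (left) and the 12 largest falls (right) between 24 h and 48 h in B73, with 1 point per library, coloured by time and shaped by replicate, and the 0 h libraries for reference. In every row the red 48 h points lie wholly to the right (rises) or left (falls) of the blue 24 h points, as the choice of these genes required. At 0 h the kinase MAPKKK 17 (0.267, 0.171 and 0.123 FPKM) lay below its 24 h values of 15.9, 32.6 and 95.6 FPKM.

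Jasmonate is a lipid hormone made in the chloroplast and peroxisome that switches on defence by removal of its JAZ (ZIM) repressors. Of 72 tested genes of jasmonate synthesis and signalling, 6 fell (8.33%, beside 0.86% of all genes) and 0 rose. The median difference was -0.45 beside -0.01 over all genes, with 20 members at an unadjusted p under 0.05. limma-voom called 2 falls and 0 rises. Allene oxide synthase 1 (Zm00001d013185, chr5:6100495-6102030), which makes the first committed intermediate, was at 8.3, 16.9 and 33.7 FPKM at 24 h and 1.94, 1.57 and 1.96 FPKM at 48 h. Its 48 h values were nearly equal and below each 24 h value, with a difference of -2.67 ± 0.45, adjusted p = 0.00529. The call held. The JAZ repressor gene ZIM 18 (Zm00001d033050) was at 6.9, 12 and 26.3 FPKM at 24 h and 0.151, 0.0975 and 0.896 FPKM at 48 h (-3.40 ± 0.80, adjusted p = 0.0298), and the jasmonate-induced oxygenase 1 gene (Zm00001d012456), whose Arabidopsis counterpart hydroxylates jasmonic acid, was at 52.8, 35.3 and 55.8 FPKM at 24 h and 9.87, 0.225 and 7 FPKM at 48 h (-3.34 ± 0.75, adjusted p = 0.0243). The ZIM 18 call needed 24 h replicates 2 and 3 and 48 h replicates 1 and 2 (adjusted p up to 0.142), and the oxygenase call needed all 3 24 h replicates and 48 h replicate 2 (adjusted p up to 0.101). CYP94C1 (Zm00001d052530), a cytochrome P450 that oxidizes the active hormone in Arabidopsis and is no member of the list, was at 58.7, 145 and 309.8 FPKM at 24 h and 12.4, 3.87 and 24.5 FPKM at 48 h (-3.55 ± 0.71, adjusted p = 0.0135), and its call needed 24 h replicate 3 (adjusted p = 0.0811 without it).

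The other 3 jasmonate genes that fell lie outside the naming rule and were chosen after their values were seen. They were lipoxygenase5 (-1.69), allene oxide synthesis3 (-1.77) and a jasmonoyl-amino acid synthetase (Zm00001d009714, -1.05), the last of which joins the hormone to isoleucine in its active form. The synthetase was at 9.44, 9.53 and 11.1 FPKM at 24 h and 4.37, 4.24 and 4.33 FPKM at 48 h, tight within each time. The list had 9 falls without B73 24 h replicate 1, but 1 when B73 24 h replicate 2 was left out, and 8 falls under library-total scaling.

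Ethylene is a gas hormone whose response ends in factors of the EIL and ERF families. Of 162 tested genes of ethylene synthesis and response factors, 9 rose and 5 fell, with a median of -0.09. The shares were 5.56% and 3.09%, beside 2.62% and 0.86% of all genes. Beside ACC oxidase2 and AP2-EREBP 111, the rises included EIL 4 (Zm00001d020939), similar to the central ethylene factor EIN3, at 9.82, 17.8 and 14.1 FPKM at 24 h and 96.1, 48.4 and 29.9 FPKM at 48 h (1.86 ± 0.47, adjusted p = 0.0407). The EIL 4 call needed all 3 24 h replicates and 48 h replicates 1 and 2 (adjusted p up to 0.191), and the gene was chosen after its values were seen. AP2-EREBP 63 (Zm00001d042593, chr3:173057147-173057683) had the largest fall of the family. It was at 6.45, 11.6 and 10.6 FPKM at 24 h and 0.154, 0 and 0 FPKM at 48 h, so it was nearly silent at 48 h in every library (-3.30 ± 0.37, adjusted p = 0.000432). AP2-EREBP genes Zm00001d052152 and Zm00001d026191 fell too, from means of 5.2 and 0.208 FPKM and 36.6 and 10.5 FPKM at 24 and 48 h (-2.32 ± 0.38, adjusted p = 0.00446 and -1.66 ± 0.33, adjusted p = 0.0123). These 3 falls held, while the count of rises was 2 without B73 24 h replicate 3.

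Members of the DREB/CBF family, the fast cold factors of this class, were not among the calls. Of 11 tested, 0 were called by limma or by limma-voom, 3 had an unadjusted p under 0.05 and the median difference was -0.54. The same 11 genes had medians of 2.15 for 24 h against 0 h and of 1.93 for 48 h against 0 h, comparisons that share libraries with each other and with the one between 24 and 48 h. Dehydrin and LEA genes, for proteins that protect cells as water is lost, had 0 calls of 50 by either tool, a median of -0.00 and 10 members at an unadjusted p under 0.05.

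Abscisic acid, the hormone of water stress, is cut from carotenoids by NCED enzymes. Of 58 tested genes of its synthesis and signalling, 2 rose and 2 fell (3.45% each, beside 2.62% and 0.86% of all genes). NCED5 (Zm00001d018819) was at 3.34, 20.6 and 18.4 FPKM at 24 h and 0.998, 0.758 and 0.602 FPKM at 48 h. Its lowest 24 h value, in replicate 1, was above all 48 h values, and the difference was -2.78 ± 0.60, adjusted p = 0.0199. The call needed 24 h replicates 2 and 3 and 48 h replicates 1 and 2 (adjusted p up to 0.105). Aldehyde oxidase2 (Zm00001d013098), of the enzyme class of the last step of the pathway, was lower, with means of 14.7 and 1.9 FPKM at 24 and 48 h (-2.47 ± 0.61, adjusted p = 0.0382). The abscisic acid stress ripening gene Zm00001d016760 was at 0.973, 0.817 and 0.264 FPKM at 24 h and 7.67, 15.9 and 15.2 FPKM at 48 h (3.01 ± 0.73, adjusted p = 0.0338). The oxidase call needed each of the 6 libraries (adjusted p up to 0.133), and the call of Zm00001d016760 needed each of the 6 libraries (adjusted p up to 0.132).

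Genes of the circadian clock, the feedback loop of transcription that keeps daily time, had the highest share of rises among the lists. Of 40 tested, 6 rose (15%, beside 2.62% of all genes) and 0 fell, with a median of 0.51 beside -0.01 over all genes. The LNK1 gene Zm00001d029378 (chr1:68244474-68250776), whose Arabidopsis counterpart is a cofactor of the clock's REVEILLE activators, was at 4.69, 2.93 and 1.35 FPKM at 24 h and 25.1, 31.8 and 16.4 FPKM at 48 h. Each 48 h value was above every 24 h value, and the difference was 2.72 ± 0.37, adjusted p = 0.00183, a call that held. A further LNK1 gene (Zm00001d047204) was at 24.2, 27.8 and 9.19 FPKM at 24 h and 168, 48.1 and 84.6 FPKM at 48 h (2.19 ± 0.57, adjusted p = 0.0458). Gigantea2 (Zm00001d039589), a clock protein that also acts in flowering, was at 4.11, 1.56 and 0.282 FPKM at 24 h and 15.4, 15.2 and 7.55 FPKM at 48 h (2.36 ± 0.53, adjusted p = 0.0234). The pseudo-response regulator gene PRR73 (Zm00001d047761), a repressor within the loop, was at 13.8, 11.3 and 5.83 FPKM at 24 h and 52.2, 35.2 and 41.9 FPKM at 48 h (2.02 ± 0.39, adjusted p = 0.0121). In these 3 genes 24 h replicate 3 was the lowest library, and none of the 3 calls held. The call of Zm00001d047204 needed all 3 24 h replicates and 48 h replicates 1 and 3 (adjusted p up to 0.209), that of gigantea2 needed 24 h replicates 2 and 3 and 48 h replicates 1 and 2 (adjusted p up to 0.123) and that of PRR73 needed 24 h replicate 3 and 48 h replicate 1 (adjusted p up to 0.0747). LNK2 (Zm00001d009330, 1.84) and an ELF4-LIKE 4 gene (1.46) rose as well and were chosen after their values were seen. The list had 1 rise without B73 24 h replicate 3 or 48 h replicate 1, limma-voom called 3, and library-total scaling called 2. Both times are multiples of a day, and whether leaves were taken at one hour of the light cycle was not tested.

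Some heat stress factors and chaperones were called. Of 232 tested, 12 rose and 2 fell (5.17% and 0.86%, beside 2.62% and 0.86% of all genes), with a median of 0.07, and 10 and 1 by limma-voom. Among them were genes named for heat stress transcription factors, which bind chaperone gene promoters. HSF 14 (Zm00001d028269) was at 0.185, 0.499 and 0.236 FPKM at 24 h and 23.5, 6.55 and 2.35 FPKM at 48 h, all 48 h values above all 24 h values (2.71 ± 0.51, adjusted p = 0.00982). HSF 6 (Zm00001d016674) was at 11.3, 14.2 and 12.5 FPKM at 24 h and 80.0, 44.8 and 55.1 FPKM at 48 h, with close values at 24 h (2.12 ± 0.45, adjusted p = 0.0195). HSF 16 (Zm00001d010812) went the other way, at 14.3, 28.3 and 11.6 FPKM at 24 h and 2.51, 3.85 and 3.08 FPKM at 48 h (-2.12 ± 0.44, adjusted p = 0.017). The HSF 14 call held, that of HSF 6 needed 24 h replicates 2 and 3 and 48 h replicate 1 (adjusted p up to 0.0949) and that of HSF 16 needed 24 h replicate 2 and 48 h replicate 1 (adjusted p up to 0.0801). The list had 1 rise without B73 48 h replicate 1. Under library-total scaling 5 rose and 1 fell and the median of the list was -0.09.

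WRKY, bHLH and MYB factors moved in both directions. Of 83 WRKY genes 4 rose and 5 fell, of 111 bHLH genes 4 rose and 7 fell, and of 171 MYB genes 5 rose and 4 fell. The shares that rose and fell were 4.82% and 6.02% for WRKY, 3.60% and 6.31% for bHLH and 2.92% and 2.34% for MYB. Over all genes they were 2.62% and 0.86%. The lists had 0 WRKY rises without B73 24 h replicate 3 or 48 h replicate 1, and 0 bHLH falls without B73 24 h replicate 2 or 48 h replicate 2. Under library-total scaling 1 WRKY gene rose and 5 fell, and 0 bHLH genes rose and 7 fell. WRKY 74 (Zm00001d044010) was at 44.8, 19 and 21.1 FPKM at 24 h and 1.81, 2.6 and 0.868 FPKM at 48 h, with every 24 h value above the 48 h values (-3.36 ± 0.66, adjusted p = 0.0127). MYB 142 (Zm00001d051788), similar to a petunia regulator of scent, was at 0, 1.35 and 1.92 FPKM at 24 h and 26, 9.58 and 15.3 FPKM at 48 h (3.13 ± 0.61, adjusted p = 0.012), and MYB 41 (Zm00001d017268) fell (-2.68 ± 0.50, adjusted p = 0.00941). Of 77 NAC genes 3 rose and 2 fell (3.90% and 2.60%). Of 91 bZIP genes 4 rose and 0 fell (4.40% and 0%), with bZIP 74 first. These were 0 and 2 NAC genes and 1 and 0 bZIP genes under library-total scaling. The calls of WRKY 74 and MYB 41 held, and that of MYB 142 needed 48 h replicate 1 (adjusted p = 0.067 without it).

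Calcium sensors and kinases, which relay cold-induced calcium signals, gave 5 rises and 1 fall of 185 tested. These shares of 2.70% and 0.54% are near the 2.62% and 0.86% of all genes. Calcineurin B-like5 (Zm00001d044389), a calcium sensor that docks protein kinases, was at 1.6, 3.18 and 4.02 FPKM at 24 h and 53.2, 55.2 and 21.3 FPKM at 48 h. Its times did not overlap, and the difference was 3.43 ± 0.61, adjusted p = 0.00773. The calcium-binding protein gene Zm00001d049940, chosen after its values were seen, was at 19.8, 24.1 and 15.6 FPKM at 24 h and 148, 102 and 74.4 FPKM at 48 h (2.35 ± 0.36, adjusted p = 0.00324). In the MAP kinase cascade 2 genes rose and 3 fell of 61 (3.28% and 4.92%), the MAPKKK17 genes among the falls. MKK5 (Zm00001d045064), of the middle tier of MAP kinase cascades, was at 6.77, 7.66 and 6.78 FPKM at 24 h and 83.6, 44.2 and 18.9 FPKM at 48 h, with tight 24 h values (2.39 ± 0.43, adjusted p = 0.00837). Whether MKK5 acts with the MAPKKK17 genes was not tested. Whether the calls of these 3 rises needed single libraries is not given here. The calcium list had 2 rises without B73 24 h replicate 3 or 48 h replicate 1. The MAP kinase list had 2 or 3 rises without each of the 6 libraries. Among 408 receptor-like kinases 9 rose and 12 fell (2.21% and 2.94%). Among 129 ubiquitin ligases of the ATL and U-box kinds 2 rose and 6 fell (1.55% and 4.65%). Without B73 48 h replicate 1 the kinases had 2 falls, and without B73 24 h replicate 3 they had 2 rises and the ligases 1 fall.

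**Figure D4:**
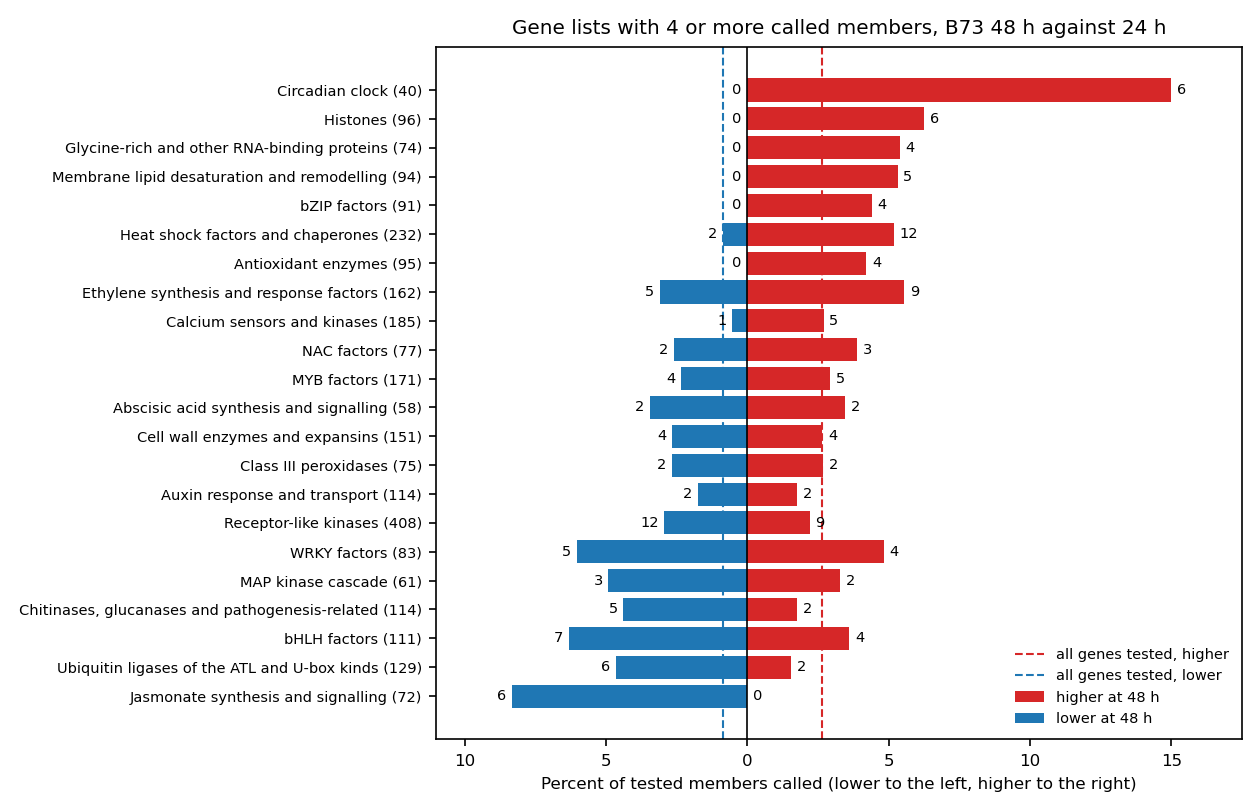
Percent of tested members called higher (right) and lower (left) at 48 h than at 24 h in B73 for the lists with 4 or more called members, with the number called at each bar and the number tested in parentheses. Dashed lines mark the shares of all genes tested, 2.62% higher and 0.86% lower; the clock list reaches 15% higher and the jasmonate list has 6 members lower and 0 higher.

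Chloroplast genes were mostly not called. Of 156 tested genes of the photosystems and light harvesting 2 rose and 0 fell, with a median of -0.18, but 0 were called under library-total scaling or by limma-voom, and 11 had an unadjusted p under 0.05. Of 90 plastid ribosomal proteins 0 were called by limma or limma-voom, with 4 at an unadjusted p under 0.05 and a median of -0.22. The magnesium chelatase subunit H gene (Zm00001d001850, chr2:1914398-1919938), whose enzyme puts magnesium into the chlorophyll ring, was the 1 rise among 32 genes of chlorophyll synthesis. It was at 4.38, 6.98 and 5.1 FPKM at 24 h and 26, 60.3 and 42.1 FPKM at 48 h, with narrow ranges at both times and no overlap (2.70 ± 0.37, adjusted p = 0.00183). The call held. Of 81 genes of C4 carbon fixation the carbonic anhydrase gene Zm00001d044095, for an enzyme that turns carbon dioxide into bicarbonate, was the 1 call, at 12.9, 23.6 and 15.4 FPKM at 24 h and 348, 105 and 67.1 FPKM at 48 h (2.93 ± 0.62, adjusted p = 0.0179). The call needed 24 h replicate 3 and 48 h replicate 1 (adjusted p up to 0.0891).

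Few genes of the leaf surface and wall were called. Of all genes, 0.86% fell. The shares that fell were 3.77% for wax and lipid transfer, 2.91% for phenylpropanoids and lignin and 2.65% for wall genes. In the list of cuticular wax and lipid transfer 2 of 53 fell and 0 rose, with a median of -0.42. In that list 0 fell without B73 24 h replicate 2 or 24 h replicate 3. The 3-ketoacyl-CoA synthase 1 gene (Zm00001d028406), which lengthens fatty acids for wax, was at 65.2, 145 and 188 FPKM at 24 h and 29.9, 25.9 and 8.68 FPKM at 48 h, so the lowest 24 h value was above the 48 h values (-2.61 ± 0.57, adjusted p = 0.0205). 3-Ketoacyl-CoA synthase 12 (Zm00001d047189) fell too (-2.41 ± 0.56, adjusted p = 0.028). The call of the first needed 24 h replicates 2 and 3 and 48 h replicate 3 (adjusted p up to 0.108), and that of the second needed 24 h replicates 2 and 3 and 48 h replicates 1 and 2 (adjusted p up to 0.118). Among phenylpropanoid and lignin genes 3 of 103 fell and 0 rose, with a median of -0.28, and the list had 0 falls without B73 24 h replicate 2, 24 h replicate 3, 48 h replicate 1 or 48 h replicate 2. Phenylalanine ammonia lyase 7 (Zm00001d017279), the entry enzyme, was at 155, 284 and 235 FPKM at 24 h and 27.4, 34.8 and 11.9 FPKM at 48 h (-3.22 ± 0.82, adjusted p = 0.0428), and its call needed each of the 6 libraries (adjusted p up to 0.139). Cell wall enzymes and expansins gave 4 rises and 4 falls of 151, with a median of -0.42. A xyloglucan endotransglucosylase gene (Zm00001d017699), whose enzyme rejoins wall polymers, was at 256, 178 and 192 FPKM at 24 h and 72.5, 24 and 81.9 FPKM at 48 h (-1.96 ± 0.49, adjusted p = 0.0399), and its call needed all 3 24 h replicates and 48 h replicates 1 and 2 (adjusted p up to 0.119).

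Markers of the epidermis and cuticle are not separate from the wax list, since all 51 tested markers are among its 53 genes and both called markers are the 3-ketoacyl-CoA synthases. They summed to 1014, 2798 and 1629 FPKM at 24 h and to 466, 820 and 573 FPKM at 48 h, and 20 of the 89 in the table were at 0 in all 6 libraries. The part of the share of epidermal RNA in the wax and wall results was not tested. In bulk RNA, fewer cells of a type and less RNA per cell cannot be told apart. Guard cell markers summed to 48.4 to 117 FPKM at 24 h and 68.1 to 72.3 FPKM at 48 h, and vascular markers to 117 to 141 and 76.1 to 109.6 FPKM, with no member called in either.

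Some histone genes rose. Of 96 tested, 6 rose and 0 fell (6.25% and 0%, beside 2.62% and 0.86% of all genes), with a median of 0.22. Of the 6, 1 is a histone acetyltransferase and not a histone. Histone H3.3 (Zm00001d045475), the variant laid down outside DNA replication, was at 104, 62.5 and 59.2 FPKM at 24 h and 779, 314 and 193 FPKM at 48 h, with replicate 1 highest at both times (2.30 ± 0.47, adjusted p = 0.0151). Histone H2A.2 (Zm00001d021707) was at 13.5, 23 and 15.1 FPKM at 24 h and 114, 84.8 and 59.2 FPKM at 48 h (2.24 ± 0.32, adjusted p = 0.00232). The H3.3 call needed 24 h replicates 2 and 3 and 48 h replicate 1 (adjusted p up to 0.0791), and the H2A.2 call held. The list had 1 rise without B73 24 h replicate 3 or 48 h replicate 1. Under library-total scaling 3 rose and 1 fell. Markers of dividing cells share 68 of their 88 tested genes with the histone list. They summed to 1566, 2101 and 1500 FPKM at 24 h and to 3528, 2653 and 1697 FPKM at 48 h, with 5 called higher, all of them histone genes, 0 lower, and 49 of 170 at 0 in all 6 libraries. The part of dividing cells in the histone result was not tested.

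Of 74 glycine-rich and other RNA-binding proteins 4 rose and 0 fell (5.41% and 0%, beside 2.62% and 0.86% of all genes). The RZ1C gene Zm00001d033511, whose Arabidopsis counterpart acts in splicing, was at 3.83, 2.69 and 1.72 FPKM at 24 h and 10.3, 10.6 and 7.09 FPKM at 48 h (1.49 ± 0.25, adjusted p = 0.00492), and held. Of 91 RNA helicases 2 rose and 0 fell, and of 312 cytosolic ribosomal proteins 1 rose and 0 fell, with a median of 0.12 that was -0.04 under library-total scaling. The list of RNA-binding proteins had 1 rise without B73 24 h replicate 2, 24 h replicate 3 or 48 h replicate 1, and 1 under library-total scaling.

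Few genes of membrane lipids, redox protection and carbon storage were called, and 0 of them fell. In the list of membrane lipid desaturation and remodelling 5 of 94 rose (5.32%, beside 2.62% of all genes), with a median of -0.09. The list had 0 rises without B73 24 h replicate 3 or 48 h replicate 1, under library-total scaling or by limma-voom. The digalactosyldiacylglycerol synthase gene Zm00001d016731, for a main lipid of the thylakoid, was at 24.1, 43.5 and 34.3 FPKM at 24 h and 113, 61.6 and 70.3 FPKM at 48 h (1.23 ± 0.32, adjusted p = 0.0452). It was chosen after its values were seen, and its call needed all 3 24 h replicates and 48 h replicates 1 and 3 (adjusted p up to 0.2). Among antioxidant enzymes 4 of 95 rose (4.21%), with a median of -0.17, and 1 under library-total scaling. The dehydroascorbate reductase gene DHAR1 (Zm00001d011035), which recycles ascorbate, was at 1.34, 1.59 and 1.08 FPKM at 24 h and 15.5, 12.5 and 8.16 FPKM at 48 h, narrow at both times (2.44 ± 0.32, adjusted p = 0.00163), and held. Of 106 starch and sucrose genes 3 rose, a share of 2.83% that is near that of all genes. Starch synthase I (Zm00001d045261), which lengthens starch chains, was at 4.2, 11 and 11.6 FPKM at 24 h and 108, 58.1 and 24.7 FPKM at 48 h (2.57 ± 0.62, adjusted p = 0.0325), and its call needed all 3 24 h replicates and 48 h replicates 1 and 2 (adjusted p up to 0.162). The NADH glutamate synthase gene (Zm00001d011610), of ammonium assimilation, was at 2.22, 2.6 and 2.19 FPKM at 24 h and 48.9, 7.22 and 12.1 FPKM at 48 h (2.39 ± 0.48, adjusted p = 0.0145), and its call needed 24 h replicate 3 (adjusted p = 0.0653 without it). Anthocyanin 3'-O-glucosyltransferase (Zm00001d044106), which adds sugar to a pigment in gentian, was at 15.9, 49.9 and 23.4 FPKM at 24 h and 750.1, 186 and 122 FPKM at 48 h (3.23 ± 0.68, adjusted p = 0.0182), and its call needed 24 h replicates 1 and 3 and 48 h replicate 1 (adjusted p up to 0.0892).

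The other lists had few or no calls, while over all genes tested 2.62% rose and 0.86% fell. Benzoxazinoid genes (26 tested), trehalose genes (30), autophagy genes (68), aquaporins (31) and phosphate genes (36) had 0 calls in limma, with 3, 5, 12, 8 and 2 members at an unadjusted p under 0.05. In limma-voom 1 aquaporin was called lower. Auxin genes gave 2 rises and 2 falls of 114, gibberellin genes 0 and 1 of 32, cytokinin genes 1 and 1 of 57, protein phosphatases 2C 2 and 1 of 115, class III peroxidases 2 and 2 of 75, cytochromes P450 1 and 2 of 108, and flavonoid genes 1 and 1 of 52. UDP-glycosyltransferases gave 3 rises and 0 falls of 126, cyclin and DNA replication genes 1 and 1 of 93, and nitrogen genes 1 and 1 of 43.

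Among all genes called, those with the highest level included a short gene with no name and a lipocalin. The unnamed gene Zm00001d043610 (chr3:205115325-205115651) was at 21.2, 95.8 and 15.7 FPKM at 24 h and 1972, 804 and 524 FPKM at 48 h. All 48 h values were above 24 h, replicate 1 highest, with a difference of 4.83 ± 1.04, adjusted p = 0.0196. Temperature-induced lipocalin-1 (Zm00001d017199, chr5:188679379-188680432), a lipid-binding membrane protein that protects Arabidopsis from freezing and heat, was at 637, 387 and 169 FPKM at 0 h and at 70.4, 67.9 and 43.8 FPKM at 24 h and 2394, 374 and 435 FPKM at 48 h. Its 24 h values were below each 0 h value, and 48 h replicate 1 was far above the other libraries. Its difference between 24 and 48 h was 3.60 ± 0.73, adjusted p = 0.0147. Its call needed 24 h replicate 3 and 48 h replicate 1 (adjusted p up to 0.0767), and that of Zm00001d043610 needed 24 h replicate 3 and 48 h replicate 1 (adjusted p up to 0.1). An AAA-ATPase gene (Zm00001d034501) was at 101, 204 and 79.9 FPKM at 24 h and 1299.9, 328 and 991 FPKM at 48 h (2.65 ± 0.65, adjusted p = 0.0367), and an ADP-ribosylation factor gene of vesicle traffic (Zm00001d013007) at 186, 134 and 129 FPKM at 24 h and 849, 355 and 473 FPKM at 48 h (1.82 ± 0.42, adjusted p = 0.0276). The first call needed all 3 24 h replicates and 48 h replicates 1 and 3 (adjusted p up to 0.167), and the second needed 24 h replicates 2 and 3 and 48 h replicate 1 (adjusted p up to 0.141).

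The zmzfp69 line was sampled over the same interval, with no library in common with B73. Both comparisons came from the same fit, which shares its estimate of the spread of each gene. A gene with a small spread is thus easier to call in both lines, so the shared calls are not independent. Most genes that rose in B73 were called higher there too, while a minority of the genes that fell in B73 were called lower there. In that line 3127 genes rose and 2071 fell (13.5% and 8.95% of those tested, 22.5% together). That balance depended on the scaling, since library-total scaling gave 1552 rises and 4642 falls. Of the 607 B73 rises, 511 (84.2%) were called higher in the mutant and 2 lower, with median differences of 1.84 in B73 and 2.00 in the mutant. Of the 199 B73 falls, 42 (21.1%) were called lower in the mutant and 4 higher, with medians of -1.77 and -0.40. Whether called or not, 136 of the 199 (68.3%) had a lower mean at 48 h in the mutant, beside 49.3% of all genes tested. Of the named genes described above, all 12 of the rises were called higher in the mutant, and 0 of the 12 falls were called lower. Outside that rule a large B73 rise could go the other way, as for an unnamed gene model added by the submitters' processing (4.47 in B73 and -4.49 in the mutant, called in both). Without mutant 24 h replicate 2, which lay at -68.6 on the first principal component against 25.6 and 40.6 in its group, the shares were 73.1% of 729 rises and 21.7% of 290 falls. Library-total scaling, which gave a median of -0.41 over all genes in the mutant, had 77.6% of 335 rises and 35.1% of 191 falls.

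**Figure D5:**
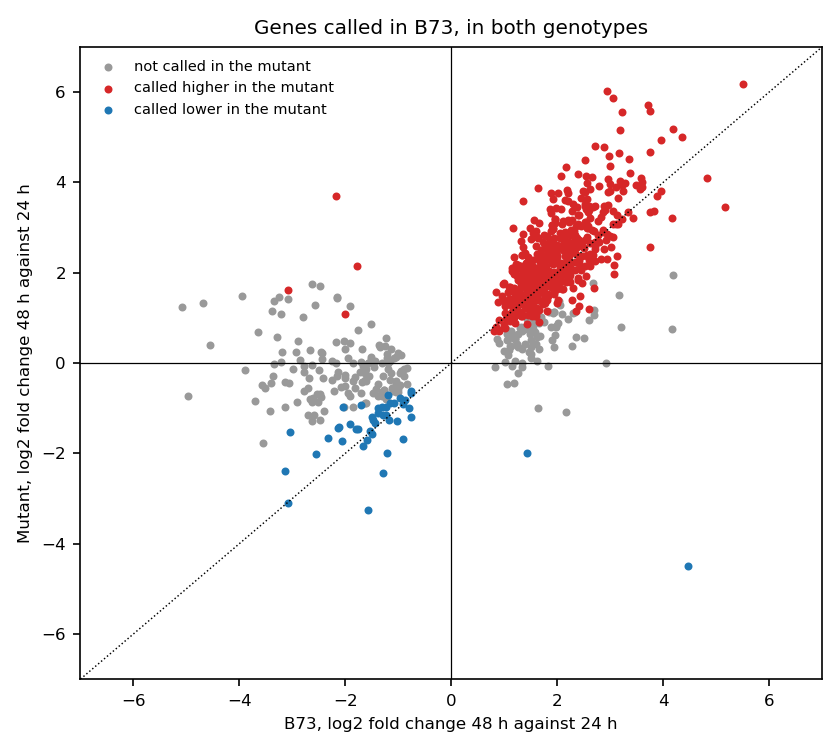
Log2 difference between 48 h and 24 h in B73 (x axis) and in the zmzfp69 line (y axis) for the 806 genes called in B73, 1 point per gene, coloured by the call in the mutant; the dotted line marks equal differences. Points on the right follow the diagonal (511 of 607 called higher in both), and points on the left spread widely on the y axis with a median of -0.40 (42 of 199 called lower in both, 136 of 199 below 0).

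For genes called the same way in both lines, AP2-EREBP 111 had differences of 3.75 in B73 and 5.58 in the mutant, PHD 28 3.96 and 3.82, and DHAR1 2.44 and 3.04. The anion channel gene SLAH2 (Zm00001d011393) fell in both lines. It was at 16.6, 18.6 and 19.6 FPKM at 24 h and 2.9, 0.316 and 1.49 FPKM at 48 h in B73 (-3.04 ± 0.41, adjusted p = 0.00177) and at 2.96, 7.79 and 9.63 FPKM and 1.07, 2.83 and 0.939 FPKM in the mutant (-1.53 ± 0.41, adjusted p = 0.0151). PHOSPHATE-INDUCED 1 (Zm00001d052205), of a family of secreted growth-linked proteins in Arabidopsis, fell in both as well, at 36.5, 43.3 and 19.7 FPKM at 24 h and 0.698, 9.03 and 2.36 FPKM at 48 h in B73 (-3.08 ± 0.69, adjusted p = 0.0235) with a mutant difference of -3.10 ± 0.69, adjusted p = 0.00611. Its B73 call needed all 3 24 h replicates and 48 h replicate 1 (adjusted p up to 0.125), and that of SLAH2 held.

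For genes that fell in B73, the mutant values were often not called. ATL45 had a mutant difference of 1.47 ± 0.74, adjusted p = 0.163, WRKY 57 of -0.28 ± 0.50, adjusted p = 0.725, allene oxide synthase 1 of 0.29 ± 0.45, adjusted p = 0.682 and the MAPKKK17 gene Zm00001d011656 of -0.49 ± 0.49, adjusted p = 0.492. A call in one line and none in the other does not show that they differ, and the difference itself was tested as the interaction of genotype with the second day. That test called 39 genes (0.169% of those tested), 18 with a more positive change in the mutant and 21 with a more negative one, among them 2 of the 607 rises and 6 of the 199 falls. Of the 39, 20 carried a name or description and 14 were gene models added by the submitters' processing. AP2-EREBP 63 fell in B73 and was at 0.302, 0 and 0.783 FPKM at 24 h and 2.77, 1.05 and 0 FPKM at 48 h in the mutant, with an interaction of 3.87 ± 0.52, adjusted p = 0.0063. The count rested on few libraries, at 311 without B73 24 h replicate 1 and at 16 when 48 h replicate 3 was left out, and limma-voom called 1.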

How the data were processed

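Libraries were made from poly-T selected RNA with dUTP second strands, per the labels' protocols. The authors deposited FPKM per gene. The submitters' processing notes name DESeq2 1.20.0, featureCounts 1.5.0-p3, HISAT2 2.0.5 and fastp. The sources used here give no settings, strand option or genome build for them, and coordinates are as deposited. Without a known strand setting, reads of overlapping genes may be shared. In each library the deposited FPKM of a gene was a whole number of steps of 1 read, which gave back the reads (100% of values within a tolerance of 0.01 reads). The total behind the FPKM scaling was 0.677 to 1.21 times the recovered total in the 6 libraries. Every column of sample values was used (0 left out). No gene was named zfp69 (0 matches), so the mutant label was not checked.

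On log2(FPKM + 1), limma 3.58.1 in R 4.3.3 (eBayes with trend) fitted 1 mean for each of the 6 groups to the 18 libraries, with 12 residual and 3.54 prior degrees of freedom, after keeping genes with 1 FPKM in 3 libraries. Calls are Benjamini-Hochberg adjusted p under 0.05 over all 23141 genes. The spread was thus estimated over all groups. The fit was tested on simulated data, but the outcome is not given here, so it adds no weight to the calls. Per-library values limit what 3 against 3 can show, since an exact permutation test of one gene cannot go below 0.1.

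Named genes were the 12 largest rises and 12 largest falls (named, not overlapping, and with a mean of 5 FPKM or more at the higher time), up to 3 called members per list with the largest change, 6 and 6 called in both genotypes, 3 and 3 of the interaction and 5 with the highest level, of which a part is printed. Lists were matched on gene names and descriptions. The members and lists were chosen with earlier results of these data known. The alternatives were another pseudocount (0.1), no filter, quantile, median-of-ratios and library-total scaling, organelle genes left out, limma-voom on recovered reads, array weights, robust eBayes, fewer libraries in the fit, the replicate number as a block, and each library left out.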

Additional observations from a re-analysis of the deposited data

Results flagged for a closer look

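The change between 24 and 48 h differed between the mutant and B73 for 39 genes by limma's interaction test. Of these, 20 carried a name or description, and the 8 given here are those picked by the naming rules above. Values are the mutant difference minus the B73 difference. Whether the interaction calls of these 8 needed single libraries is not given here. AP2-EREBP 63 differed by 3.87 and is described above. SNL6 (Zm00001d044104), similar to a cinnamoyl-CoA reductase, differed by 3.92 ± 0.54, adjusted p = 0.00645, and was at 9.42, 18.3 and 14.2 FPKM at 24 h and 4.03, 2.76 and 3.04 FPKM at 48 h in B73, and at 4.15, 0.343 and 1.81 FPKM at 24 h and 9.74, 12.8 and 10.4 FPKM at 48 h in the mutant. ATL8 (Zm00001d017645), a RING finger protein gene, differed by 4.68 ± 0.73, adjusted p = 0.0142, and was at 5.96, 13.7 and 35.7 FPKM at 24 h and 0.445, 2.11 and 0.392 FPKM at 48 h in B73, and at 7.94, 2.27 and 2.37 FPKM at 24 h and 15.1, 14.3 and 10.3 FPKM at 48 h in the mutant. The transporter gene ABCG14 (Zm00001d024497), which moves cytokinin in Arabidopsis, differed by 5.87 ± 0.78, adjusted p = 0.0063, and was at 8.24, 12.1 and 6.68 FPKM at 24 h and 0.559, 2.46 and 0.898 FPKM at 48 h in B73, and at 0.139, 0 and 0.657 FPKM at 24 h and 25.9, 26.3 and 4.73 FPKM at 48 h in the mutant. In these 4 genes the B73 libraries fell and the mutant libraries did not.

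A nitrate reductase gene (Zm00001d052139) differed by 5.17 ± 0.85, adjusted p = 0.0216, with B73 at 1.27, 9.9 and 4.8 FPKM at 24 h and 0.87, 1.5 and 0.109 FPKM at 48 h and the mutant at 0.703, 0.443 and 0.421 FPKM at 24 h and 23.6, 33.3 and 6.01 FPKM at 48 h. A retrovirus-related Pol polyprotein gene, a model added by the submitters' processing, differed by -6.78 ± 1.19, adjusted p = 0.035, with B73 at 0.61, 0.00452 and 0.0156 FPKM at 24 h and 8.61, 5.55 and 12.2 FPKM at 48 h and the mutant at 1.59, 51.3 and 25.3 FPKM at 24 h and 0, 0.271 and 0.0679 FPKM at 48 h. The aquaporin gene TIP3-1 (Zm00001d048520), a vacuolar water channel, differed by -4.95 ± 0.89, adjusted p = 0.0358, with B73 at 3.54, 1.93 and 1.67 FPKM at 24 h and 15.9, 5.3 and 19.4 FPKM at 48 h and the mutant at 30.9, 81.8 and 51.9 FPKM at 24 h and 10.3, 3.02 and 5.36 FPKM at 48 h. A CTP synthase gene (Zm00001d011357) differed by -4.01 ± 0.72, adjusted p = 0.0358, with B73 at 6.56, 3.17 and 2.91 FPKM at 24 h and 6.39, 7.27 and 15.5 FPKM at 48 h and the mutant at 10.7, 26.2 and 24.2 FPKM at 24 h and 0.801, 1.65 and 2.27 FPKM at 48 h. In these 4 genes the B73 change missed the threshold (adjusted p from 0.0646 to 0.316).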

How the results depend on the processing

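With each of the 18 libraries left out in turn, calls between 24 and 48 h ran from 223 to 1101 in B73 (806 as reported), from 2953 to 5556 in the mutant (5198), and from 16 to 311 for the interaction (39). Mutant calls were 3059 without mutant 24 h replicate 2 and 2953 without mutant 48 h replicate 1. B73 calls were 1698 with array weights (a fit that stopped before its convergence tolerance), 0 with the compared libraries alone, 352 with B73 libraries only, 526 with library-total scaling, 457 by limma-voom and 520 with organelle genes left out. The mutant gave 1682 with the compared libraries alone. The interaction gave 268, 7, 17, 1 and 21 with array weights, the compared libraries alone, library-total scaling, limma-voom and organelle genes left out. The other alternatives gave counts within 1.5 times. Library-total scaling called 6.71% of genes higher and 20.1% lower in the mutant.

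Of 122 named genes 118 were called in B73, and 0 of these 118 changed sign under any setting. Where the times do not overlap, leaving out 1 library cannot reverse the sign, so that part was fixed in advance. Still called were 110 with array weights, 0 with the compared libraries, 50 with B73 libraries, 82 with library-total scaling, 62 by limma-voom, 72 without the filter, 91 with a pseudocount of 0.1 and 83 without organelle genes. Each of 29 was called with any 1 library left out. Replicate numbers are shared by the times. In B73 the deviations of same-numbered libraries correlated at -0.11, 0.03 and 0.04, and those of unlike-numbered ones at -0.23 to 0.17. With 3 libraries per time this cannot show whether same-numbered libraries were grown or processed together, and the reported fit did not pair them. With a replicate block 711 genes were called, 528 higher and 183 lower.

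With 3 libraries per time, genes low in reads and differences within the spread of the replicates were not detectable, and a missing call does not show that a gene stayed level.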

Other observations

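Genes of the xanthophyll cycle, in which light-protecting carotenoids are interconverted in the thylakoid, were mostly higher on the second day. This group was chosen after its values were seen. Of 7 tested, 5 rose and 0 fell, with a median difference of 2.00, and 3 of the 7 rose in the mutant. Of all genes tested, 2.62% rose in B73 and 13.5% in the mutant. Whether the calls of this group needed single libraries is not given here. Zeaxanthin epoxidase1 (Zm00001d003513), which turns zeaxanthin back into violaxanthin, was at 1.4, 5.22 and 2.77 FPKM at 24 h and 103, 14.6 and 20.0 FPKM at 48 h (3.08 ± 0.73, adjusted p = 0.0299). The times did not overlap, and 48 h replicate 1 was far above the rest. Zeaxanthin epoxidase2 (Zm00001d025545) was at 42.9, 40.2 and 20.1 FPKM at 24 h and 328, 83.2 and 104 FPKM at 48 h (2.08 ± 0.51, adjusted p = 0.0359). Its neighbour Zm00001d025544 also rose (2.70), and reads of the near copies may be split between them. Violaxanthin de-epoxidase3 (Zm00001d011720) was at 14.6, 16.6 and 7.49 FPKM at 24 h and 86.6, 41.6 and 33.1 FPKM at 48 h (1.92 ± 0.39, adjusted p = 0.0159). Violaxanthin de-epoxidase1 (Zm00001d004021), of the opposite reaction to the epoxidases, was at 6.1, 41.9 and 53.5 FPKM at 24 h and 13.1, 16.6 and 11.7 FPKM at 48 h, with overlapping values and a difference of -0.80 ± 0.60, adjusted p = 0.525.

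Other groups were chosen in the same way, and over all genes tested 2.62% rose and 0.86% fell. Of 8 genes for RCD1-like and other poly(ADP-ribose) polymerases, a family of stress regulators, 3 rose and 0 fell. The first of them, Zm00001d028307, was at 27.3, 33.8 and 23.5 FPKM at 24 h and 477, 134 and 158 FPKM at 48 h (2.91 ± 0.51, adjusted p = 0.00698). Of 4 serine hydroxymethyltransferases, 2 rose, with Zm00001d042661 at 5.95, 8.66 and 6.66 FPKM at 24 h and 61.9, 65.6 and 19.6 FPKM at 48 h (2.46 ± 0.42, adjusted p = 0.00532). Of 9 E2F factors, regulators of DNA replication genes, 3 rose and 0 fell. Of organelle genes, 1 of 32 tested mitochondrial genes was called higher (median 0.66) and 1 of 41 plastid genes lower (median -0.38). Plastid genes held 0.00634, 0.192 and 0.0321% of reads at 24 h and 0.0122, 0.0584 and 0.00417% at 48 h, which overlap. Organelle genes held 0.172, 0.368 and 0.0895% of reads at 24 h and 0.338, 0.407 and 0.180% at 48 h, in libraries selected for poly-A RNA.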
